A study of Mus musculus with 8 samples.

Results

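The glucose transporters and hexokinases of primary murine cardiac fibroblasts were examined by RNA-seq. The genes were taken from the deposited table by their symbols, and 10 of its 22274 genes were chosen, namely 5 facilitative glucose transporters (Slc2a1, Slc2a3, Slc2a4, Slc2a6 and Slc2a8), 4 hexokinases (Hk1, Hk2, Hk3 and Hkdc1) and the opposing phosphatase G6pc3. Cardiac fibroblasts are the matrix-producing cells of the heart, and all 8 libraries came from mouse heart cells that had received TGF-β, the cytokine that drives fibroblasts toward myofibroblasts. There were 4 libraries labelled GFP, which received the empty vector (Ad-EV (GFP)), and 4 labelled OEIRF7, which were meant to overexpress the transcription factor IRF7 (Ad-IRF7). No library without TGF-β was analysed here. The methods of the study name adenovirus, in which a CMV promoter, not specific to a cell type, drives a human IRF7 with FLAG and EGFP tags, while the deposited description names an adeno-associated virus. The labels do not say whether replicates were separate cultures, so p-values measure only the spread between these libraries.

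Glucose enters cells through carriers of the Slc2a (GLUT) family and is trapped in the cytosol when a hexokinase phosphorylates it. The product, glucose-6-phosphate, feeds glycolysis, the pentose phosphate pathway, glycogen and hexosamines, and glucose-6-phosphatases can turn it back into glucose. Fibroblasts rely mainly on GLUT1 for uptake, whereas the insulin-responsive GLUT4 belongs to muscle and fat, and hexokinase 1 is the housekeeping isoform while hexokinase 2 is the inducible one.

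Counts of reads per gene summed to 24888589 to 27095611 in the Ad-EV (GFP)-labelled libraries and to 24454801 to 28658826 in those labelled Ad-IRF7. Mouse Irf7, the targeted gene, was read 2272 to 3680 times in the former and 380 to 421 times in the latter, a log2 fold change of -2.96 ± 0.12 (SE, adjusted p = 7.7e-11, edgeR's quasi-likelihood test). If the transgene is human, this count does not check the labels, and if it is the mouse gene, the count goes against them. Directions given here follow the labels, with Ad-IRF7 compared to Ad-EV (GFP), and "rose" and "fell" are used for genes with an adjusted p under 0.05. The 8 fibroblast markers were abundant in every library, at a summed 10874 to 11437 counts per 1000000 (CPM) with the former label and 9658 to 10391 CPM with the latter, and 1 of them rose and 5 fell. Of 6 cardiomyocyte markers, Myh6, Myh7 and Actc1 were at or near 0 with at most 3 counts, Tnni3 and Ryr2 had at most 9 and 13, and Tnnt2, the one tested, fell from 11.3 ± 1.59 to 7.78 ± 0.825 CPM. The 4 mural cell markers did not move together, as Notch3 fell from 41.4 ± 2.63 to 13.6 ± 2.35 CPM, Rgs5 rose from 4.17 ± 0.701 to 6.92 ± 0.637 CPM, Abcc9 did not pass and Kcnj8 had at most 5 counts. The part of these cell types in the results was not tested. In bulk RNA, fewer cells of a type and less RNA per cell cannot be told apart.

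Among the transporters and kinases, the most abundant member of each family rose. The smaller transporters moved in both directions, whereas no hexokinase fell. Hk1, Hk2, Slc2a1 and Slc2a6 rose in the Ad-IRF7-labelled libraries, by 1.72-fold to 2.06-fold, whereas Slc2a3, Slc2a8 and G6pc3 fell, by 1.36-fold to 2.03-fold. Hk3 and Hkdc1 did not pass the test, and Slc2a4 was below the filter on low counts. Thus 7 of the 9 tested genes were called, 4 higher and 3 lower. Of all 13533 genes tested, 58.9% were called, 29.0% higher and 29.9% lower, so a call by itself was common in these libraries. The 7 called genes did not overlap between the groups in CPM either, as was true of 53.8% of all genes tested (26.8% higher, 27.0% lower). Changes at least as large as that of Hk2, in either direction, were found in 8.73% of the tested genes, and at least as large as that of Hk1 in 13.1%. The median log2 fold change of all tested genes was 0.0015.

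**Figure D1:**
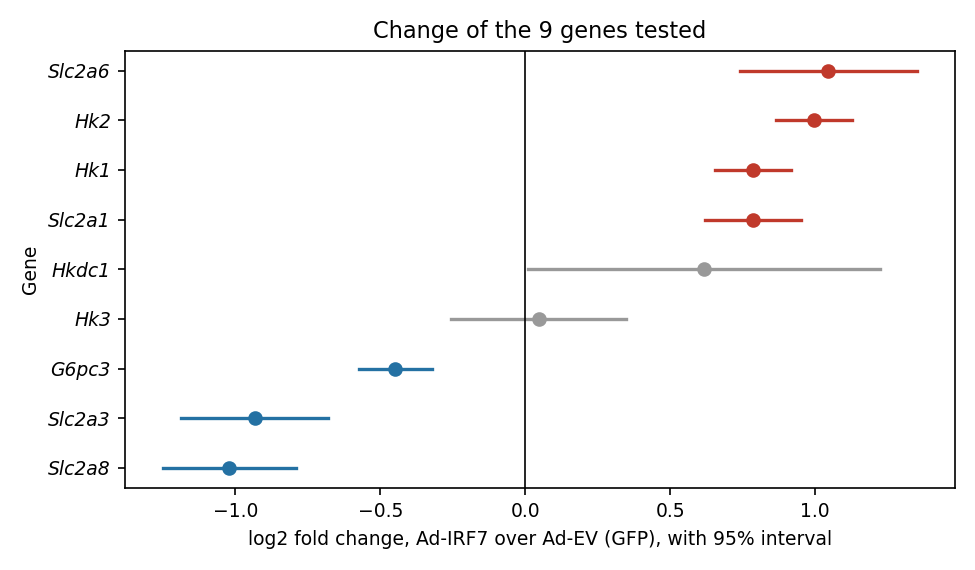
Log2 fold change of the 9 tested genes, libraries labelled Ad-IRF7 over those labelled Ad-EV (GFP), on the horizontal axis, with genes on the vertical axis; lines are 95% intervals, red marks genes that rose, blue genes that fell and grey genes that did not pass an adjusted p of 0.05. Slc2a6 (1.05), Hk2 (1.0), Hk1 (0.79) and Slc2a1 (0.79) lie to the right of 0, and G6pc3 (-0.45), Slc2a3 (-0.93) and Slc2a8 (-1.02) to the left.

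Promoter sequences were read from RefSeq (GRCm38.p6) in windows of 250 bases before to 50 bases after each start, and 9 windows were found for 8 of the 10 genes, with 2 for Hk1 and none for Slc2a3 and Slc2a4. The interferon stimulated response element that IRFs bind, searched as GAAANNGAAAC on both strands, was in 0 of the 9 windows and in 0.819% of all 32851 promoters. The paper reports an IRF motif of another sequence farther upstream of Hk1, with reporter and ChIP assays. That site lies outside these windows, so this search could not have found it. ACGTG, a core sequence of the hypoxia response element, was on either strand in 5 windows (G6pc3, Hk1, Hk2, Hk3 and Slc2a1) and in 19.6% of all promoters. Only these letters were searched, and other spellings of the core were not. The GC box, GGGCGG on either strand, was in 4 windows (Hk2, Hkdc1, Slc2a1 and Slc2a6) and in 35.7% of all. ACGTG matches are printed for the 3 genes that carried most of the family level and rose and for G6pc3, which fell. The match of Hk3, which did not pass the test, is not printed. The windows of Slc2a6, which rose, Slc2a8, which fell, and Hkdc1, which did not pass, hold no ACGTG. Whether the matches bear on the direction of a gene was not tested. Each stretch has 30 bases and runs 5′ to 3′ on the gene's strand, with capitals marking ACGTG or its reverse complement. Hk2 has another match 226 bases before its start that is not printed. Distances are counted from the start of the RefSeq transcript whose window was used, which is 1 of several annotated starts, and in Slc2a1 and G6pc3 it lies inside the gene as GENCODE M21 bounds it. The Slc2a1 stretch (chr4:119108696-119108725, plus strand) ends 20 bases before that start, that of Hk2 (chr6:82774486-82774515, minus strand) ends 32 bases before it, and that of G6pc3 (chr11:102189599-102189628, plus strand) ends 71 bases before it. The Hk1 stretch (chr10:62340392-62340421, minus strand) is the first 30 bases of the transcript from the more downstream of the 2 starts in the table.
Slc2a1: agtcccgccccggACGTGctccccaggccc
Hk2: gagcacatcCACGTcactgtccggggcggc
Hk1: gctccttACGTGgggaACGTGcagggtgat
G6pc3: cCACGTGctagcaacagcggcCACGTGggg
A match describes letters in a window and does not mark a bound site.

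Levels were compared between genes as FPKM, which scales reads by transcript length and library depth. In the libraries labelled Ad-EV (GFP) the order from high to low was Hk1, Slc2a1, G6pc3, Hk2, Slc2a8, Slc2a6, Hk3, Slc2a3, Hkdc1 and Slc2a4, and the overlapping neighbours were Hk3 with Slc2a3 and Hkdc1 with Slc2a4. In the libraries labelled Ad-IRF7 no neighbours overlapped, and 2 pairs of neighbours stood in another order. Hk2 was above G6pc3 in 0 of 4 libraries labelled Ad-EV (GFP) and in 4 of 4 labelled Ad-IRF7, and the same held for Slc2a6 over Slc2a8. Hk3 had the higher mean than Slc2a3 in both groups and was above it in 2 of 4 and 4 of 4 libraries. These orders are a description and were not tested.

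**Figure D2:**
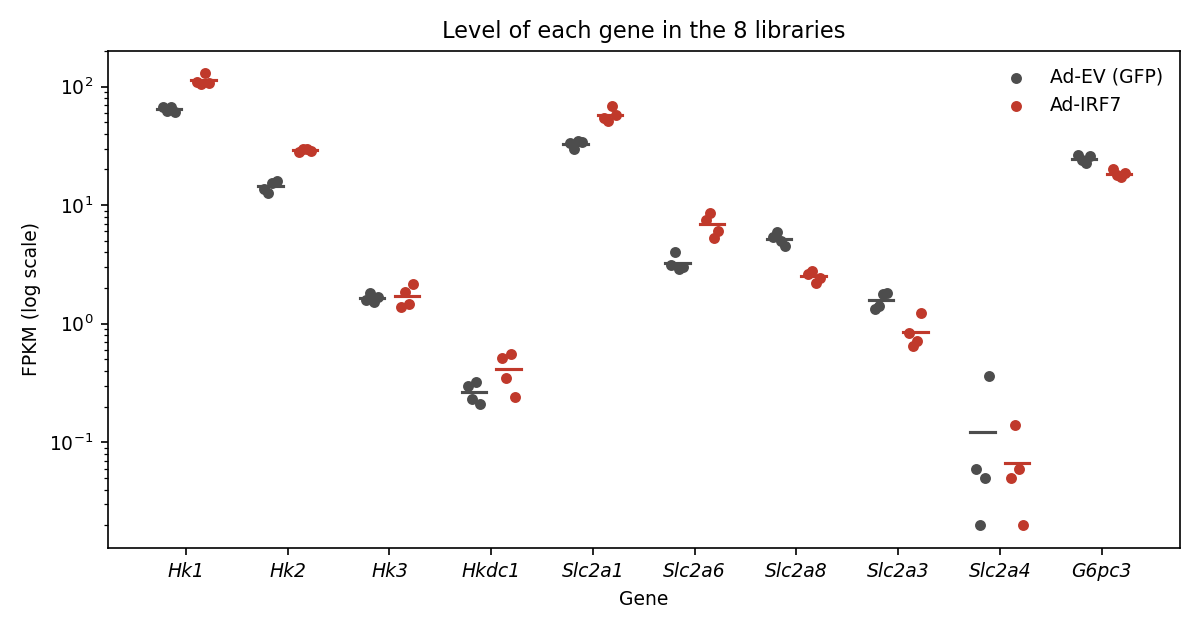
FPKM of the 10 genes (vertical axis, log scale) in the 8 libraries, with points for single libraries and bars for group means, dark grey for Ad-EV (GFP) and red for Ad-IRF7. The red points of Hk1, Hk2, Slc2a1 and Slc2a6 lie above all grey ones, those of Slc2a8, Slc2a3 and G6pc3 lie below, and those of Hk3, Hkdc1 and Slc2a4 are mixed with them.

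Slc2a1 encodes GLUT1, the ubiquitous carrier of basal glucose uptake, and lies on the plus strand of chromosome 4 at chr4:119108711-119137983 (GRCm38, GENCODE M21). Its FPKM was 33.50, 29.83, 34.71 and 34.14 in the Ad-EV (GFP)-labelled libraries and 54.36, 51.51, 68.28 and 57.57 in the Ad-IRF7-labelled ones. Every Ad-IRF7 library was above every Ad-EV (GFP) library, and replicate 3 was the highest and replicate 2 the lowest in both groups. Slc2a1 rose from 105 ± 8.49 to 182 ± 23.3 CPM (SD, n = 4 each). The log2 fold change was 0.79 ± 0.077 (SE, 95% interval 0.62 to 0.95, adjusted p = 5.9e-07 by edgeR's quasi-likelihood test, exact permutation p = 0.029). That exact p is the smallest that 4 libraries against 4 can give, and each of the other called genes reached it too.

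Slc2a6 encodes GLUT6, a carrier held mostly inside the cell and known from myeloid cells (chr2:27021363-27027998, minus strand). Its FPKM was 3.12, 4.03, 2.91 and 3.01 in the Ad-EV (GFP)-labelled libraries and 7.51, 8.63, 5.26 and 6.09 in the Ad-IRF7-labelled ones. The groups did not overlap, but the Ad-IRF7 libraries spread by 1.62-fold in CPM, with replicate 2 the highest and replicate 3 the lowest in both groups. Slc2a6 rose from 7.04 ± 1.06 to 14.5 ± 3.09 CPM, a log2 fold change of 1.05 ± 0.14 (SE, 95% interval 0.74 to 1.35, adjusted p = 1.7e-05 by edgeR's quasi-likelihood test). Macrophage markers were present and higher with the same label. Of 7 tested, 4 rose (Cd14, Adgre1, Lyz2 and Cd68) and 0 fell, and their summed level was 272 to 325 CPM in the Ad-EV (GFP)-labelled libraries and 343 to 378 CPM in the Ad-IRF7-labelled ones. The other 3 did not pass, with log2 fold changes of 0.06 for Csf1r, 0.14 for C1qa and -0.08 for Ptprc. Their part in the level of Slc2a6 was not tested.

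Slc2a8 encodes GLUT8, another intracellular carrier (chr2:32972990-32982083, minus strand). Its FPKM was 5.43, 5.94, 5.01 and 4.50 in the Ad-EV (GFP)-labelled libraries and 2.65, 2.76, 2.21 and 2.42 in the Ad-IRF7-labelled ones. All 4 Ad-IRF7 libraries were below all of the others. Slc2a8 fell from 10.4 ± 1.33 to 5.14 ± 0.414 CPM, a log2 fold change of -1.02 ± 0.11 (SE, 95% interval -1.25 to -0.79, adjusted p = 1.2e-06, edgeR's quasi-likelihood test).

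Slc2a3 encodes GLUT3, the high-affinity carrier of neurons and white blood cells (chr6:122727809-122801640, minus strand). It was read 142, 139, 118 and 140 times in the Ad-EV (GFP)-labelled libraries and 69, 74, 71 and 74 times in the Ad-IRF7-labelled ones. The counts were close within each group and did not overlap between them. Slc2a3 fell from 5.24 ± 0.333 to 2.75 ± 0.191 CPM, a log2 fold change of -0.93 ± 0.12 (SE, 95% interval -1.19 to -0.68, adjusted p = 8.7e-06, edgeR's quasi-likelihood test). By FPKM it was 1.32, 1.40, 1.79 and 1.80 against 0.83, 0.65, 0.71 and 1.23. The spread was wider there, and the length that the deposited FPKM imply was not the same in each library. CPM over FPKM ranged from 2.46 to 3.97 for Slc2a3, a 1.61-fold span, against 1.23-fold for Slc2a8 and 1.01-fold to 1.04-fold for the other members except Slc2a4. A processed pseudogene, Gm4482, lies within Slc2a3 on the same strand and could share reads with it.

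Slc2a4, which encodes GLUT4, was barely read (chr11:69942539-69948188, minus strand). Its counts were 3, 1, 3 and 5 in the Ad-EV (GFP)-labelled libraries and 3, 7, 4 and 1 in the Ad-IRF7-labelled ones, totals of 12 and 15. A difference was not detectable at this depth. With a minimum of 1 count in total in place of the filter, the log2 fold change was 0.27 ± 0.78 (SE, 95% interval -1.36 to 1.90, adjusted p = 0.81, edgeR's quasi-likelihood test).

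The summed FPKM of the 5 transporters was 43.43, 41.22, 44.47 and 43.81 in the Ad-EV (GFP)-labelled libraries and 65.4, 63.69, 76.52 and 67.33 in the Ad-IRF7-labelled ones. The groups did not overlap, and the mean was 1.58 times higher under the latter label (43.2 ± 1.41 and 68.2 ± 5.72, exact two-sided permutation p = 0.029). Slc2a1 alone, at 51.51 FPKM or more in the Ad-IRF7-labelled libraries, was above the highest Ad-EV (GFP) sum of 44.47. The p of the sum therefore adds nothing to the result of Slc2a1. Slc2a1 held most of the sum in every library. Its share was 77.1%, 72.4%, 78.1% and 77.9% in the Ad-EV (GFP)-labelled libraries and 83.1%, 80.9%, 89.2% and 85.5% in the Ad-IRF7-labelled ones. Slc2a8 held 12.1% ± 1.78 and 3.72% ± 0.631, Slc2a6 held 7.59% ± 1.48 and 10.2% ± 2.90, and Slc2a3 held 3.64% ± 0.513 and 1.26% ± 0.404 (SD, n = 4 each). Slc2a4 held 0.280% ± 0.363 and 0.101% ± 0.0823. The groups overlapped for Slc2a6 and Slc2a4 and did not overlap for Slc2a1, Slc2a8 and Slc2a3, for which the exact permutation p was 0.029. Adjusted over the 9 shares of both families, that p was 0.064, so no share passed the threshold. As 0.029 is the smallest exact p possible here, the adjusted value depends on how many shares reached it. It does not measure the size of a shift.

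The ratio of Slc2a3 to Slc2a1 within a library, which does not depend on scaling, was tested apart from the shares. Slc2a1 was 21.1 times the level of Slc2a3 in the Ad-EV (GFP)-labelled libraries and 69.5 times in the Ad-IRF7-labelled ones, by FPKM. The log2 ratio was -4.40 ± 0.19 and -6.12 ± 0.44 (SD, n = 4 each), and it fell by 1.72 on the log2 scale (exact permutation p = 0.029, adjusted over 3 ratios 0.043). From counts, which are free of the uneven lengths, the difference was -1.71. Slc2a1 and Slc2a3 moved apart without overlap in FPKM, so their ratio could not overlap either. Its p therefore adds nothing to the results of the single genes.

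With all 12 measured Slc2a genes in the sum, Slc2a1 held 56.6% ± 2.64 and 68.3% ± 3.39. Slc2a10, a carrier outside the chosen list, was at 10.5 ± 0.605 FPKM in the Ad-EV (GFP)-labelled libraries and 13.4 ± 0.885 in the Ad-IRF7-labelled ones. Slc2a10 was thus the next most abundant Slc2a gene after Slc2a1, above Slc2a8 and Slc2a6. Slc2a7 had a count of 0 in all libraries.

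**Figure D3:**
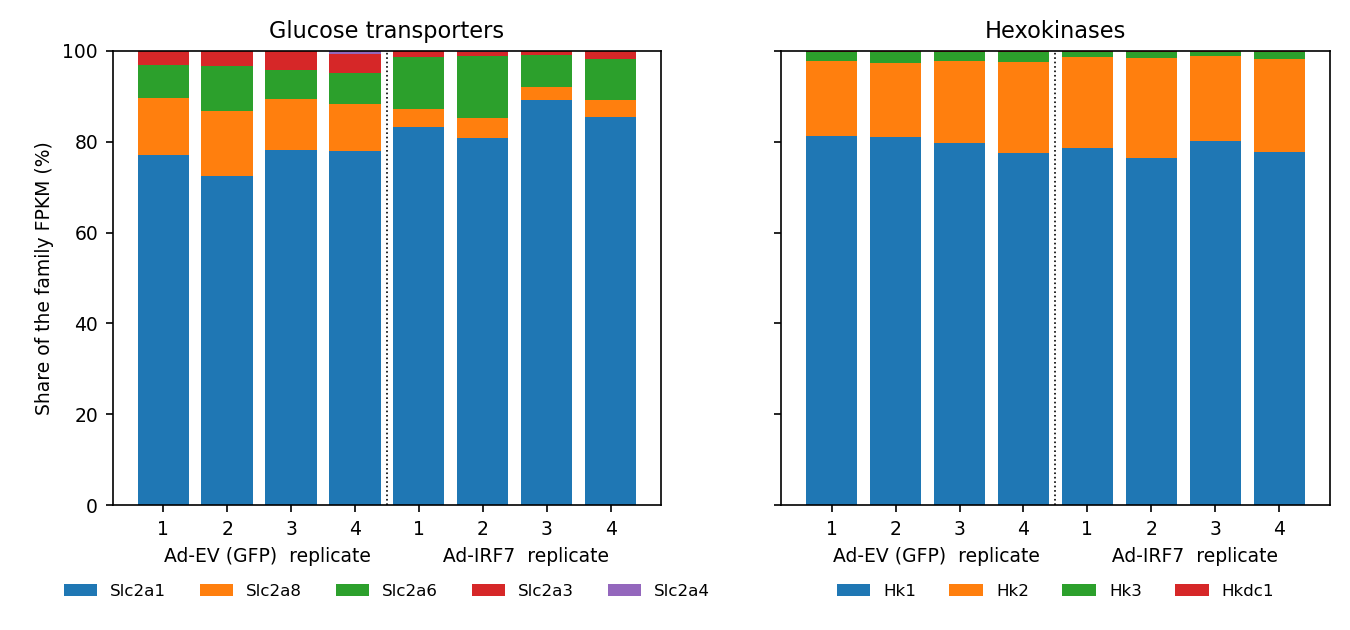
Share of the summed FPKM (vertical axis, percent) held by each transporter (left) and each hexokinase (right) in the 8 libraries, numbered by replicate within Ad-EV (GFP) and Ad-IRF7. Slc2a1 takes 72.4% to 78.1% of the transporter bars on the left of the dotted line and 80.9% to 89.2% on its right, while Hk1 takes 76.5% to 81.2% of the hexokinase bars on both sides.

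Hk1, the housekeeping hexokinase that docks on mitochondria, was the most abundant of the 10 genes. It lies on the minus strand of chromosome 10 (chr10:62268855-62379908) and has 20 annotated transcripts from 12 start positions, so the gene count pools several isoforms. Its FPKM was 66.85, 62.70, 67.82 and 61.12 in the Ad-EV (GFP)-labelled libraries and 109.44, 104.44, 129.23 and 108.04 in the Ad-IRF7-labelled ones. The lowest Ad-IRF7 library was far above the highest Ad-EV (GFP) library, and replicate 3 stood highest in both groups. Hk1 rose from 241 ± 14.1 to 416 ± 42.8 CPM (SD, n = 4 each). The log2 fold change was 0.79 ± 0.061 (SE, 95% interval 0.65 to 0.92, adjusted p = 5.4e-08, edgeR's quasi-likelihood test). The paper reports the other direction, with HK1 repressed by IRF7 overexpression in TGF-β-treated cardiac fibroblasts by qPCR and western blotting. It also drew HK1 from its RNA-seq, to which these libraries belong, as altered by IRF7 overexpression and occupied by FLAG-tagged IRF7. Its text states no direction for that step. The reason for the difference in direction, including the labels, was not tested.

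Hk2, the inducible hexokinase of muscle and of many growing cells, also docks on mitochondria (chr6:82725025-82774454, minus strand). Its FPKM was 13.59, 12.69, 15.34 and 15.87 in the Ad-EV (GFP)-labelled libraries and 27.93, 29.89, 29.98 and 28.57 in the Ad-IRF7-labelled ones. The groups did not overlap, and the Ad-IRF7 libraries lay within 1.10-fold of each other in CPM. Hk2 rose from 79.1 ± 8.35 to 158 ± 6.43 CPM, a log2 fold change of 1.0 ± 0.061 (SE, 95% interval 0.87 to 1.13, adjusted p = 4.2e-09, edgeR's quasi-likelihood test). Antisense genes are annotated across Hk2 (Gm17034), Hk1 (Hk1os) and Slc2a1 (Gm12867 and Gm12868) and have no row of their own in the table, so without a stated strand setting their reads cannot be told apart from those of these genes.

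Hk3, the hexokinase of white blood cells, was low and did not pass the test (chr13:55005985-55021385, minus strand). Its counts were 137, 144, 121 and 140 in the Ad-EV (GFP)-labelled libraries and 113, 168, 119 and 172 in the Ad-IRF7-labelled ones. The Ad-IRF7 libraries lay on both sides of the others. The log2 fold change was 0.05 ± 0.14 (SE, 95% interval -0.26 to 0.35, adjusted p = 0.80 by edgeR's quasi-likelihood test, exact permutation p = 0.91), so a change in either direction within that interval could not be seen. Macrophage markers were measurable, whereas those of neutrophils summed to 0.121 to 0.932 CPM over all libraries, with S100a9 and Ly6g at 0, and their part in the level of Hk3 was not tested. Hk3 overlaps Unc5a on the other strand only at the ends of both genes, as Unc5a spans chr13:54949411-55006018. Unc5a was at 7.10 CPM on average with a log2 fold change of -0.40 (adjusted p = 0.0031, edgeR's quasi-likelihood test). The strand setting of the counting is not stated.

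Hkdc1, a hexokinase-like enzyme next to Hk1, lies 3228 bp from it on the same strand (chr10:62383137-62422491). It was read 29, 20, 28 and 20 times in the Ad-EV (GFP)-labelled libraries and 46, 35, 50 and 21 times in the Ad-IRF7-labelled ones. Replicates 1, 2 and 3 of Ad-IRF7 were above all of the former, and replicate 4 lay among them. The log2 fold change was 0.62 ± 0.28 (SE, 95% interval 0.01 to 1.23), with an unadjusted p of 0.047 and an adjusted p of 0.075 in edgeR's quasi-likelihood test. The call turned on 1 library, since the log2 fold change was 0.80 without Ad-IRF7 replicate 4 and passed (adjusted p = 0.019), while leaving out each of the others gave 0.44 to 0.71 and did not pass (adjusted p = 0.071 to 0.23, edgeR's quasi-likelihood test).

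The 4 hexokinases summed to 82.33, 77.43, 85.00 and 78.87 FPKM in the Ad-EV (GFP)-labelled libraries and to 139.27, 136.52, 161.24 and 139.03 FPKM in the Ad-IRF7-labelled ones. The groups did not overlap, and the mean was 1.78 times higher under the latter label (80.9 ± 3.42 and 144 ± 11.6, exact two-sided permutation p = 0.029). Hk1 alone, at 104.44 FPKM or more in the Ad-IRF7-labelled libraries, was above the highest Ad-EV (GFP) sum of 85.00. The p of the sum therefore adds nothing to the result of Hk1. The makeup of the sum overlapped between the groups for its main members. Hk1 held 79.9% ± 1.70 and 78.2% ± 1.53 of it (exact permutation p = 0.26), and Hk2 held 17.8% ± 1.74 and 20.3% ± 1.36 (exact permutation p = 0.086). Hk3 held 2.04% ± 0.238 and 1.21% ± 0.306 without overlap (exact permutation p = 0.029, adjusted over the 9 shares 0.064), and Hkdc1 held 0.326% ± 0.0530 and 0.286% ± 0.0893. Hk1 was 4.51 times the level of Hk2 in the Ad-EV (GFP)-labelled libraries and 3.87 times in the Ad-IRF7-labelled ones. The log2 ratio of Hk2 to Hk1 differed by 0.22 (-2.17 ± 0.17 and -1.95 ± 0.13), which did not pass (exact permutation p = 0.086, adjusted over 3 ratios 0.086).

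G6pc3, the ubiquitous glucose-6-phosphatase of the endoplasmic reticulum, moved the other way (chr11:102189620-102194081, plus strand). Its FPKM was 26.47, 23.81, 22.74 and 25.83 in the Ad-EV (GFP)-labelled libraries and 20.10, 17.97, 17.34 and 18.53 in the Ad-IRF7-labelled ones. The groups did not overlap. G6pc3 fell from 37.1 ± 2.59 to 27.2 ± 1.37 CPM, a log2 fold change of -0.45 ± 0.059 (SE, 95% interval -0.57 to -0.32, adjusted p = 1.2e-05, edgeR's quasi-likelihood test). Changes of at least this size in either direction were found in 28.9% of all tested genes. The summed hexokinases were 3.28 times the FPKM of G6pc3 in the Ad-EV (GFP)-labelled libraries and 7.78 times in the Ad-IRF7-labelled ones. The log2 ratio was 1.71 ± 0.13 and 2.96 ± 0.18, a difference of 1.25 (exact permutation p = 0.029, adjusted over 3 ratios 0.043). The hexokinase sum and G6pc3 had already moved apart without overlap, so this p adds nothing to their own results.

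**Figure D4:**
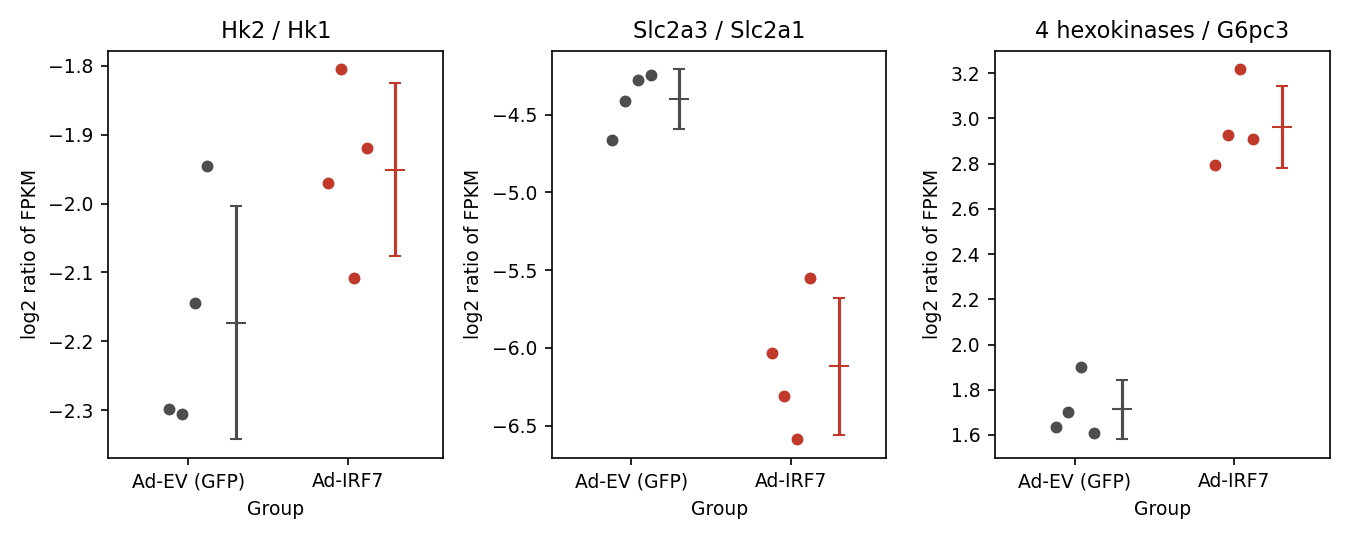
Log2 ratio of FPKM within each library (vertical axes, each with its own range) for Hk2 over Hk1, Slc2a3 over Slc2a1 and the 4 hexokinases over G6pc3, by group, with points for libraries and bars for mean ± SD. The groups overlap for Hk2 over Hk1 (means -2.17 and -1.95) and are apart for the other ratios (-4.40 and -6.12, 1.71 and 2.96).

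The other genes of glucose handling moved in both directions. Of a list of 38, 30 were tested, 13 rose and 8 fell in the Ad-IRF7-labelled libraries, 43.3% and 26.7% of those tested beside 29.0% and 29.9% of all genes, and the median log2 fold change was 0.05 beside 0.0015. Of 10 genes of the routes that glucose-6-phosphate feeds, directly or through later intermediates, 7 rose and 2 fell. Gfpt2, a rate-limiting enzyme of hexosamine synthesis, rose from 276 ± 8.73 to 719 ± 51.4 CPM (log2 fold change 1.38 ± 0.046 SE, adjusted p = 1.1e-11, edgeR's quasi-likelihood test). Its paralog Gfpt1 fell from 198 ± 3.97 to 146 ± 0.811 CPM, by 0.44 on the log2 scale. Gys1, glycogen synthase, rose by 0.66, and the phosphoglucomutases Pgm1 and Pgm2 rose by 0.41 and 0.43. G6pdx, which opens the pentose phosphate pathway in the cytosol, fell by 0.46, while H6pd, its counterpart in the endoplasmic reticulum, rose by 0.27, each on the log2 scale. Gpi1, which passes glucose-6-phosphate on to glycolysis, was at 0.08 (adjusted p = 0.057, edgeR's quasi-likelihood test).

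Of 9 other carriers of sugars, 5 were tested, and Slc2a10 rose (log2 fold change 0.32) while Slc2a9, a urate carrier (-0.93 ± 0.14), Slc2a12 (-0.87 ± 0.26) and Slc2a13, a myo-inositol carrier (-0.47 ± 0.094), fell (SE; adjusted p = 3.6e-05, 0.0087 and 6.4e-04, edgeR's quasi-likelihood test). Slc37a1, a carrier of glucose-6-phosphate, had the largest log2 fold change of the list at 2.02 ± 0.39 (adjusted p = 4.6e-04, edgeR's quasi-likelihood test). It rested on 13, 4, 3 and 5 reads against 19, 36, 29 and 20 and is therefore imprecise. Its relatives Slc37a2 and Slc37a4 were at -0.18 and -0.03 and did not pass. Adpgk, which phosphorylates glucose with ADP, rose by 0.44 on the log2 scale.

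Among 8 genes of carrier trafficking and turnover, Tbc1d1, a Rab GTPase-activating protein on GLUT4 vesicles, rose from 75.6 ± 2.05 to 127 ± 5.02 CPM (log2 fold change 0.75 ± 0.038 SE, adjusted p = 6.1e-10, edgeR's quasi-likelihood test). Lnpep rose by 0.23, Txnip, which promotes removal of GLUT1 from the cell surface, fell by 0.42, and Sort1 fell by 0.17, each on the log2 scale. Arrdc4, Tbc1d4, Rab10 and Aspscr1 did not pass. Of the mitochondrial channels on which hexokinases dock, Vdac3 rose by 0.12, Vdac2 fell by 0.14 and Vdac1 was at -0.03 and did not pass.

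**Figure D5:**
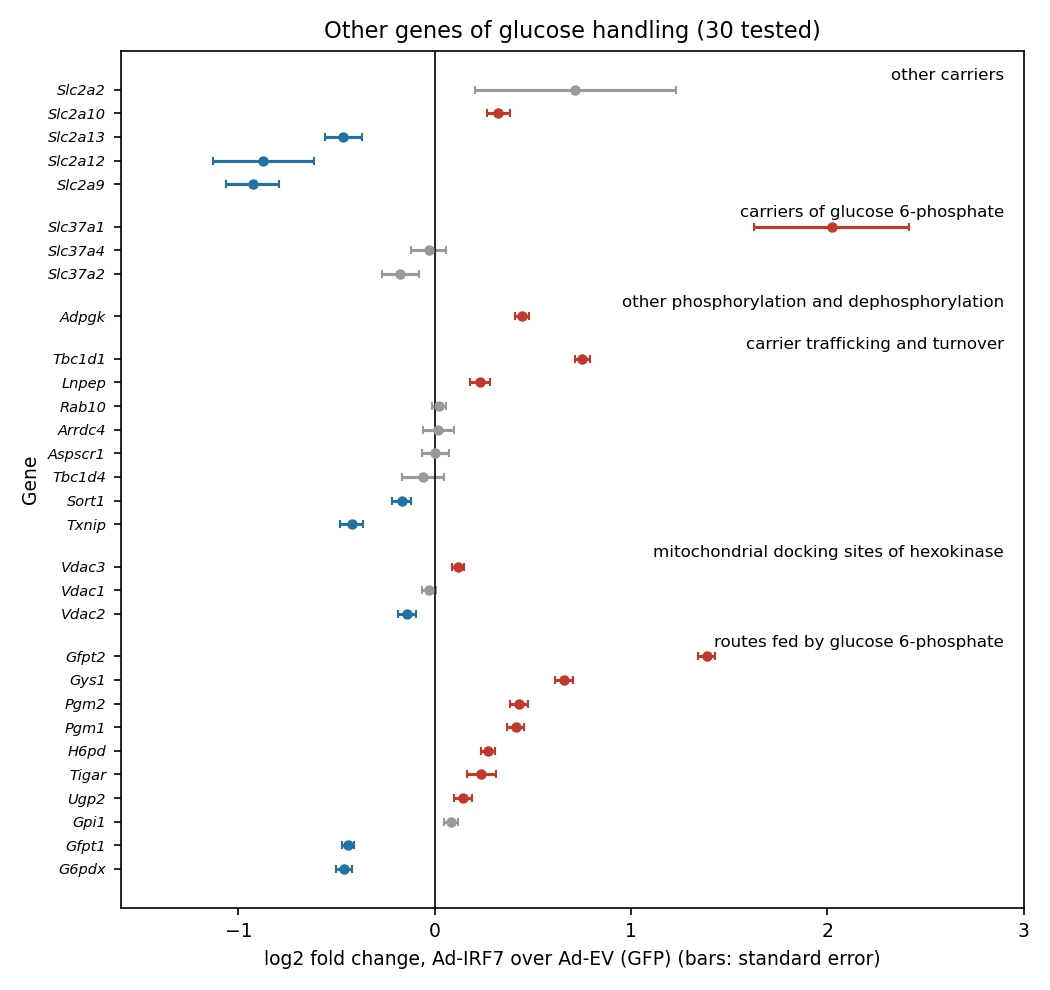
Log2 fold change (horizontal axis) of the 30 tested genes of the list of glucose handling, grouped by role, with bars for standard errors, red for genes that rose, blue for genes that fell and grey for those that did not pass. Among the routes fed by glucose-6-phosphate 7 of 10 points are red, with Gfpt2 farthest out at 1.38, and among the other carriers 3 of 5 are blue.

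Many genes correlated closely with the main members. Over the 8 libraries and 10317 genes with a mean of at least 5 CPM, Pearson's r of log2 CPM was above 0.95 for 996 genes with Hk1, 1163 with Hk2 and 799 with Slc2a1. The genes most like Hk1 were Tnxb (r = 0.999), Bcat1 (0.998) and Sec23a (0.998). Those most like Hk2 were Egfr, Hmga2 and S100a7a (0.999 each), and those like Slc2a1 included Pfkfb3 (0.996), which promotes glycolysis, and Ldha (0.996), a lactate dehydrogenase subunit. These values are a description, the points share the group difference, and no p is given.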

How the data were processed

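RNA-seq of 8 libraries was analysed. The authors trimmed reads with Trimmomatic, mapped them to GRCm38 with HISAT2, deposited the raw counts per gene from HTSeq-count, and deposited FPKM from Cufflinks, normalized for length and depth and rounded to 2 decimals. Tool versions and the strand setting of the counting are not given in the sources used here, and the kits named by the labels are not those named by the paper. Deposited group means, log2 ratios, p-values and FDR belong to the authors' own comparison and were not used. Of the 22274 genes, 121 symbols in which the letters of a group name had replaced others were restored by identifier, 22219 identifiers matched GENCODE M21, and 3816 genes had no count.

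Differential expression was tested on the counts with edgeR 4.0.16 (R 4.3.3). The filter of filterByExpr left 13533 genes, TMM factors ran from 0.989 to 1.01, and glmQLFit with glmQLFTest gave the quasi-likelihood test, with Benjamini-Hochberg adjustment over all tested genes. Sums, shares and ratios of FPKM were compared by exact two-sided permutation tests over libraries, whose smallest p with 4 against 4 is 0.029. Log2 CPM used a prior count of 2. The test across genes was tested on simulated data. Same-group libraries differed by more than counting noise (chi-square per degree of freedom 2.69 to 8.67), so none was merged.

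The members, gene lists and tests were chosen with earlier results of these data known. Named were all members, Irf7, the list genes called with the 3 largest changes in each direction or counted in groups of 5 or fewer, and the 3 genes most correlated with Hk1, Hk2 and Slc2a1. Some genes that this rule or the lists take in are not reported here. Gys1, Pgm1, Pgm2, G6pdx, H6pd, Gfpt1, Gpi1, Unc5a, the cell type markers and the uncalled trafficking genes were named after seeing their values. The alternatives included DESeq2 1.42.0, other scalings, other filters, limma 3.58.1 on log2(FPKM + 1) and log2(FPKM + 0.1), which understates the change of low genes, CPM or all paralogs in the shares, the replicate number as a block, and leaving out each library. Sequence identity of the proteins was not analysed here.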

Additional observations from a re-analysis of the deposited data

Results flagged for a closer look

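Of 68 groups of 4 libraries examined, 4 held a library that stood apart by Dixon's ratio of gap to range (95% level), and chance flags about 1 in 20. The summed hexokinase FPKM of Ad-IRF7 replicate 3 was 161.24, with the other Ad-IRF7 libraries at 136.52 to 139.27. The share of Slc2a1 in the transporter FPKM was 72.4% in Ad-EV (GFP) replicate 2 and 77.1% to 78.1% in the others. Slc2a4 stood at 0.36 FPKM in Ad-EV (GFP) replicate 4 and at 0.02 to 0.06 in the others, and its share there was 0.822% with the others at 0.0485% to 0.138%. That library had 5 reads of Slc2a4.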

How the results depend on the processing

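The counts of called members (4 to 5 higher, 3 lower in each alternative) and the family sums kept their direction under the alternatives run. So did the shares of Hk1 and Slc2a1 and the ratio of Hk2 to Hk1. The tests run on all of these stayed on their side of the threshold. For the shares and the ratio this refers to the exact permutation p before adjustment, as the alternatives were not adjusted. Across the alternatives that keep all libraries the log2 fold change was 0.78 to 0.81 for Hk1, 0.97 to 1.02 for Hk2 and 0.78 to 0.81 for Slc2a1. That of Slc2a3 was -0.94 to -0.48, the last with limma on log2(FPKM + 1). Leaving out each library gave 0.71 to 0.82 for Hk1, 0.94 to 1.04 for Hk2 and 0.69 to 0.84 for Slc2a1, -0.090 to 0.14 for Hk3 and -0.26 to 0.0014 percentage points for the Slc2a4 share. With 3 against 4 libraries the smallest exact p is 0.057, so sums, shares and ratios were not tested there. Direction turned for Hk3, at -0.090 without Ad-IRF7 replicate 4 (adjusted p = 0.58, edgeR's quasi-likelihood test), and for the Slc2a4 share, which differed by 0.0014 points without Ad-EV (GFP) replicate 4 and by -0.18 with it. The cause was not tested. Same-numbered libraries correlated at 0.079 to 0.138 in their deviations, above 0.1 in 2 of 4 pairs. Differently numbered libraries correlated at -0.158 to 0.048, and all 8 correlated best with their own number. What libraries of the same number have in common was not tested, and the main fit did not use the number. With the replicate number as a block, 8211 genes were called in place of 7970, Hkdc1 passed (log2 fold change 0.60, adjusted p = 0.047, edgeR's quasi-likelihood test) and the other members kept their calls. With limma on log2(FPKM + 1) the log2 fold change of Hkdc1 was 0.16 and did not pass (adjusted p = 0.12). Hkdc1 and Slc2a4 rest on few reads.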
